A study of Mus musculus with 8 samples.

Results

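Myostatin, activin and TGF-beta signalling was followed through 30 genes in quadriceps muscle of Mss51 knockout (KO) and wild type (WT) mice. The genes were chosen by name for their roles as ligands, extracellular binders, receptors, Smads, intracellular regulators and a target, and all 30 were among the 43239 distinct gene names of the files. The 8 mice were females aged 6 months, 4 labelled Mss51-/- and 4 labelled wild type, with 1 RNA-seq library each. The labels give no other allele, no treatment and no account of how the Mss51 allele was made, and no batch or date. Every value is FPKM as deposited, a number of fragments scaled to transcript length and library size, so levels of different genes can be set side by side. The files hold no read counts, and the labels state 50 M read pairs per library.

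Ligands of this family bind a type II receptor, which activates a type I receptor, and the type I receptor phosphorylates Smad2 and Smad3. These join Smad4 and act in the nucleus with partners such as the corepressors Ski and Skil. In skeletal muscle, myostatin (Mstn) is known as a secreted inhibitor of muscle growth, follistatin (Fst) binds and blocks it together with the activins, and the TGF-betas are known for their part in matrix formation and repair. Mss51 was earlier reported as a gene that responds to myostatin and TGF-beta signalling.

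Mss51, the targeted gene, went against the labels. It stood at 340, 201, 216 and 207 FPKM in the libraries labelled KO, against 22.9, 37.0, 27.5 and 24.8 FPKM in the libraries labelled WT. Every library labelled KO was above every library labelled WT, and the log2 fold change (KO minus WT, of FPKM + 0.5) was 3.07 (exact permutation p = 0.0286, two-sided, the smallest that 4 against 4 allows; limma adjusted p = 0.000643). The files give 1 value for the whole locus (chromosome 14, 20482856 to 20497748, mm10), which runs past both ends of the annotated gene (20482867 to 20496901). Which of its exons the reads came from cannot be seen. The groups below are therefore those of the labels, and each direction is that of libraries labelled KO relative to libraries labelled WT.

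Because Mss51 is the gene by which this pathway and the genotype meet, its promoter is shown with those of Smad6, Mstn and Tgfb2, members on which the results below turn. Each is 300 bases of the RefSeq annotation of GRCm38.p6, from 250 before to 50 after the annotated start, written 5′ to 3′ on the strand of the gene. Capitals mark GTCTAGAC, the palindrome known as a Smad-binding element, and CAGAC, the letters of the CAGA boxes known as binding sites of Smad3 and Smad4, as read on the strand of the gene.
Mss51, chr14:20496852-20497151, minus strand: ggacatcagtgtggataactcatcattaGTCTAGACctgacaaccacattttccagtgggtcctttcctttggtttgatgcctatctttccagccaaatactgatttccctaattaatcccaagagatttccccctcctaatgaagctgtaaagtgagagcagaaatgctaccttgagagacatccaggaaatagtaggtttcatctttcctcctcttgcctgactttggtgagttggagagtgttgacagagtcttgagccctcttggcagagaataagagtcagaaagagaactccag
Smad6, chr9:64022010-64022309, minus strand: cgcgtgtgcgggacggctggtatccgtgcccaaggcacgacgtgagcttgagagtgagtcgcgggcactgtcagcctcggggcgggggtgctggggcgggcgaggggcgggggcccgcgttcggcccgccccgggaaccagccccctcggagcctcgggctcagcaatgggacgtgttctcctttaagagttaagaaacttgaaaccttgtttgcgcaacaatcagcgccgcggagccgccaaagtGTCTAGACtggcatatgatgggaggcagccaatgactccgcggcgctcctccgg
Mstn, chr1:53061390-53061689, plus strand: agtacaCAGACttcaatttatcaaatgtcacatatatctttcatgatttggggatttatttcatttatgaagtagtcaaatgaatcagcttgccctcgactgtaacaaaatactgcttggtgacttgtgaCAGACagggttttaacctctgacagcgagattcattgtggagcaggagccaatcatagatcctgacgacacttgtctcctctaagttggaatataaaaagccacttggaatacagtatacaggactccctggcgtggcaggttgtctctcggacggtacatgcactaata
Tgfb2, chr1:186705940-186706239, minus strand: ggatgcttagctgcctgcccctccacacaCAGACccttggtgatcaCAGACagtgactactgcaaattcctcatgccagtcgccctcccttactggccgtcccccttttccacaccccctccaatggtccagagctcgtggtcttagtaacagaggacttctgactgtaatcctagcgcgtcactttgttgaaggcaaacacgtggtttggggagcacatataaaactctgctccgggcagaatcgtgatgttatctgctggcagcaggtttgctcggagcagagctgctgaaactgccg
In the Mss51 window GTCTAGAC begins 222 bases before the start, and in the Smad6 window it begins 4 bases before the start and runs across it. The palindrome reads the same on both strands and occurs in 70 of all 32851 windows, 0.213%. Of the 19 members with a window in the RefSeq tables, Smad6 was the only one to hold it. CAGAC or its reverse complement GTCTG occurs in 49.6% of all windows and in 10 of the 19 members, and in these 4 windows no copy overlaps the palindrome. Mstn holds CAGAC at 244 and 120 bases before its start, and Tgfb2 at 221 and 204. A match describes these letters only. The loci of the deposited values of Mss51, Smad6 and Tgfb2 reach upstream of the annotated starts, so these distances hold for the annotated starts alone.

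None of the members differed between the groups at an adjusted p under 0.05. The test was limma on log2(FPKM + 0.5) across the 11878 genes that averaged 1 FPKM or more over the 8 libraries, with Benjamini-Hochberg adjustment over all of them, and 27 of the 30 members passed that filter. Of all genes tested 0.0505% were called, all 6 of them higher in the libraries labelled KO and Mss51 among them. The smallest adjusted p among the members was 0.336, for Tgfb2. At an unadjusted p under 0.05 there were 3 of the 27 (11.1%), against 10.3% of all genes tested, and these 3, Tgfb2, Gdf11 and Smad4, were all lower in the libraries labelled KO, where 2.76% of all genes were lower and 7.5% higher at that level. The groups did not overlap for 2 members, Tgfb2 and Smad4, both lower in the libraries labelled KO (7.41% of the members tested, where 1.61% of all genes were lower without overlap, 3.89% higher and 5.5% either). As TPM and with median-ratio scaling, both described in the next paragraph, 0 and 2 members were without overlap.

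Taken as a list, 20 of the 27 members had a log2 fold change below 0, where 45.6% of all genes tested did, and the median was -0.08 for the members and 0.02 for all genes. The values ran from -0.56 for Tgfb2 to 0.29 for Smad6. With the named genes of each library scaled to the same total (TPM), the median of all genes moved to -0.18 and that of the members to -0.28, with 82% of all genes and 26 of the 27 members below 0. Of the 7 members above 0 as deposited, Smad6 alone stayed above 0 as TPM, and Inhba, Fstl1, Ltbp1, Tgfbr3, Smad7 and Pmepa1 turned sign. The totals behind this scaling stood apart in 2 libraries: the summed FPKM of named genes was 1679480 in KO replicate 4 and 1124390 in WT replicate 3, against 620662 to 718560 in the other 6. A single entry held 54.9% of that sum in KO replicate 4 (Atg7) and 41.8% in WT replicate 3 (Gm22953), both looked up after the values were seen, while no entry held more than 5.19% in the other 6. Median-ratio scaling instead divides each library by the median, over genes above 0 in all libraries, of its ratio to the gene's geometric mean. With it 20 of the 27 members and 51.5% of all genes were below 0, with medians of -0.10 for the members and -0.006 for all genes. The median of the members minus that of all genes was -0.10 as deposited and -0.11 as TPM, and -0.17 to -0.05 when 1 library was left out.

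**Figure D1:**
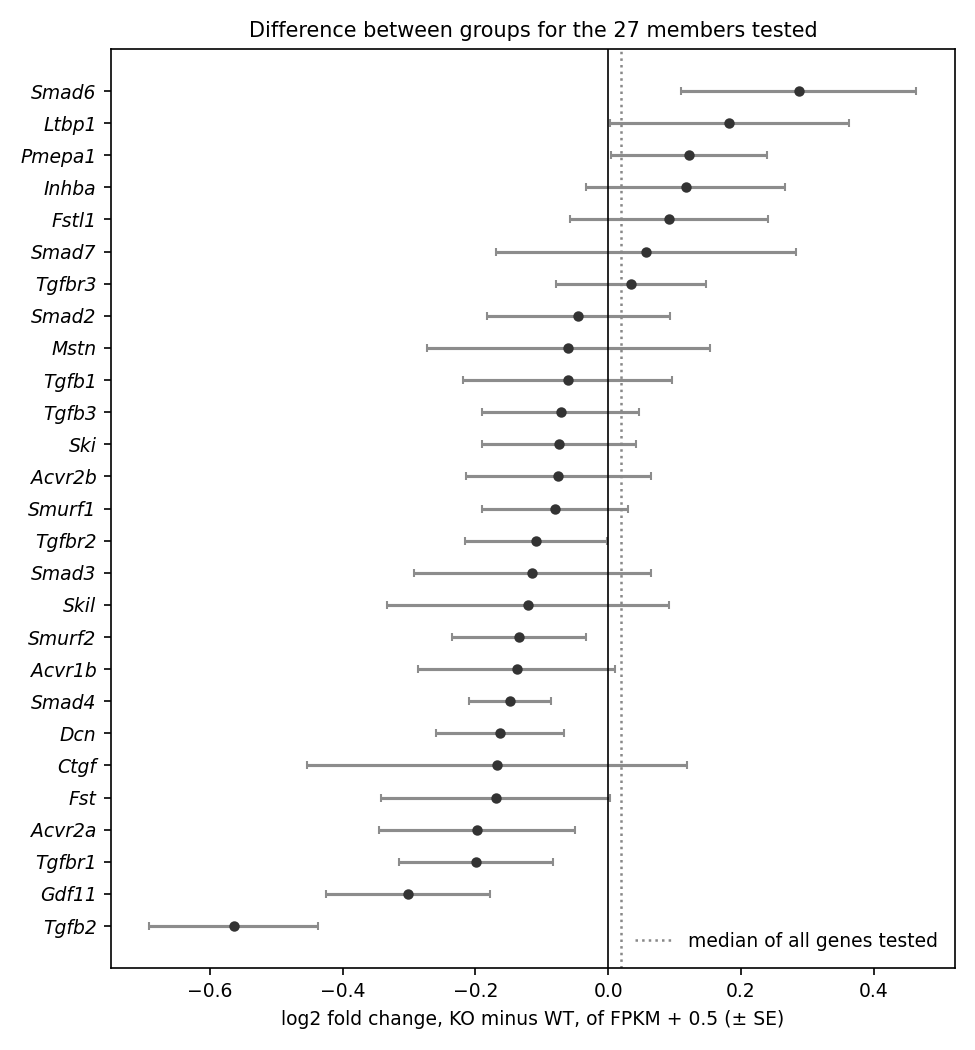
Log2 fold change of FPKM + 0.5 (KO minus WT, horizontal axis) with its SE for the 27 members tested, sorted by value, with the median of all genes tested as a dotted line. Tgfb2 at -0.56 and Gdf11 at -0.30 lie lowest and Smad6 at 0.29 highest, and none passed at an adjusted p under 0.05.

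The members spanned a wide range of levels. Averaged over the 8 libraries, Dcn (502 FPKM), Fstl1 (66.6 FPKM) and Mstn (46.1 FPKM) were highest, and each exceeded the next gene in that order in 8 of 8 libraries. Below them Smad3, Ctgf, Acvr1b, Smad4, Ski and Tgfbr2 lay between 28.2 and 20.04 FPKM, and none of these was above the next of them in more than 6 of 8 libraries. At the low end Inhba averaged 1.01 FPKM, and Inhbb (0.862), Bambi (0.378) and Fstl3 (0.331) stayed under the filter and were not tested. Across the 8 libraries the highest value of a tested member was 1.23 to 2.39 times the lowest, with a median of 1.56, where the median over all genes tested that had no 0 was 1.499.

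**Figure D2:**
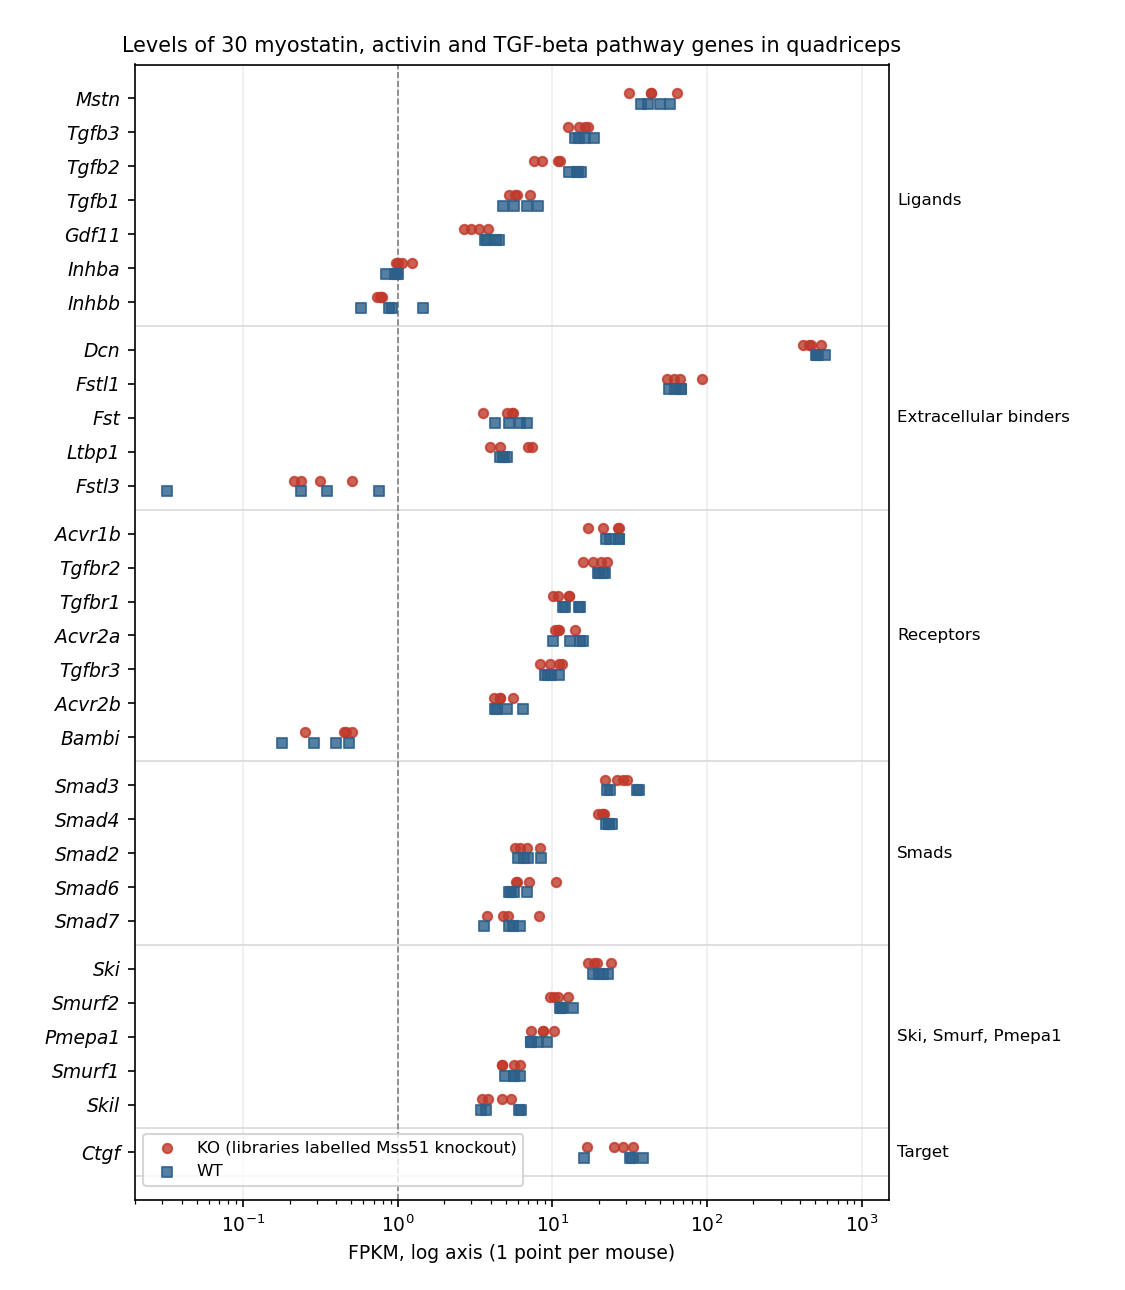
FPKM (log axis) of the 30 members by role, with 1 point per mouse, libraries labelled KO drawn above those labelled WT. The dashed line marks 1 FPKM, the mean required for testing. Dcn averaged 502 FPKM, while Inhbb, Bambi and Fstl3 averaged under 1 FPKM.

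Among the ligands, Mstn was the most abundant and its groups overlapped throughout. It stood at 43.4, 31.1, 43.6 and 64.2 FPKM in the libraries labelled KO, against 49.9, 41.5, 57.5 and 37.5 FPKM in those labelled WT. Both the highest and the lowest of the 8 values were in libraries labelled KO. The means were 45.6 ± 13.7 and 46.6 ± 8.92 FPKM (SD, n = 4 each), with a log2 fold change of -0.06 and a 95% interval of -0.54 to 0.42. The sign turned without KO replicate 2 (0.11) and without WT replicate 3 (0.05), and the adjusted p was 0.947 in limma with all 8 libraries.

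Gdf11, the closest relative of myostatin, was much less abundant than Mstn in every library. The ratio of Mstn to Gdf11 averaged 14.6 ± 6.21 in the libraries labelled KO and 11.5 ± 2.59 in those labelled WT (SD, n = 4 each), and its lowest value was 9.53. Gdf11 stood at 3.86, 2.97, 3.37 and 2.70 FPKM in the libraries labelled KO, against 4.51, 4.35, 3.76 and 3.67 FPKM in those labelled WT. KO replicate 1 lay above WT replicates 3 and 4, so the groups overlapped. The log2 fold change was -0.30 with a 95% interval of -0.58 to -0.02, and limma gave an adjusted p of 0.453. No stretch of 100 bases is shared between the transcripts of Mstn and Gdf11 in GENCODE M21, nor between any other members.

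Tgfb2, which encodes a TGF-beta isoform, showed the largest difference among the members. It stood at 10.9, 8.62, 7.66 and 11.2 FPKM in the libraries labelled KO, against 15.4, 14.4, 12.8 and 14.6 FPKM in those labelled WT. All 4 libraries labelled KO lay below all 4 labelled WT. The means were 9.60 ± 1.74 and 14.3 ± 1.07 FPKM (SD, n = 4 each), and the log2 fold change was -0.56 (SE 0.13, 95% interval -0.85 to -0.28, limma adjusted p = 0.336). Without KO replicate 1 the adjusted p was 0.0885, the smallest that limma gave over the 18 alternatives, and in each of them the value stayed below 0, between -0.77 and -0.47. As TPM, where KO replicate 4 and WT replicate 3 are scaled down most, the log2 fold change was -0.77 and the groups overlapped. The gene lies on chromosome 1 at 186622792 to 186705989 (mm10), and 2.14% of its exonic bases also belong to an RNA on the opposite strand.

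The values of the other TGF-beta genes overlapped between the labels. Tgfb3 averaged 15.2 ± 1.92 FPKM in the libraries labelled KO and 16.0 ± 2.05 FPKM in those labelled WT. Tgfb1, the isoform best known from immune cells and fibrosis, averaged 6.01 ± 0.793 and 6.37 ± 1.43 FPKM under the KO and WT labels. The ratio of Tgfb3 to Tgfb2 within a library averaged 1.62 ± 0.339 in the libraries labelled KO and 1.13 ± 0.224 in those labelled WT (SD, n = 4 each), a difference that was not tested. The activin subunit genes were low, Inhba at 1.07 ± 0.113 against 0.950 ± 0.0750 FPKM and Inhbb at 0.767 ± 0.0237 against 0.956 ± 0.366 FPKM, KO label against WT label.

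Smad4, the partner shared by all receptor-activated Smads, varied least of the tested members, by a factor of 1.23 between its highest and lowest library. It stood at 21.63, 19.81, 20.95 and 21.41 FPKM in the libraries labelled KO, against 23.18, 24.41, 22.30 and 23.19 FPKM in those labelled WT. The groups did not overlap, though KO replicate 1 and WT replicate 3 were close, and as TPM the groups overlapped. The log2 fold change was -0.15 (SE 0.06, 95% interval -0.29 to -0.01), and limma gave an adjusted p of 0.454.

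Of the receptor-activated Smads, Smad3 exceeded Smad2 in 8 of 8 libraries, with a ratio of 4.00 ± 0.707 in those labelled KO and 4.21 ± 0.878 in those labelled WT (SD, n = 4 each). Smad3 stood at 22.0, 26.2, 28.6 and 30.4 FPKM in the libraries labelled KO, against 36.5, 23.6, 35.4 and 22.7 FPKM in those labelled WT. The values under the WT label formed a high and a low pair, and those under the KO label ran from just below the low pair to between the pairs (log2 fold change -0.11, limma adjusted p = 0.860). Smad2 averaged 6.80 ± 1.16 and 7.01 ± 1.05 FPKM under the KO and WT labels.

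Neither of the inhibitory Smads, Smad6 and Smad7, passed the test. Smad6, known mainly as an inhibitor of BMP receptors, stood at 5.83, 7.08, 5.94 and 10.5 FPKM in the libraries labelled KO, against 5.26, 6.83, 5.64 and 5.41 FPKM in those labelled WT. KO replicate 4 stood alone at the top and the rest overlapped. The log2 fold change was 0.29 (95% interval -0.12 to 0.69, limma adjusted p = 0.621) and it was 0.11 without KO replicate 4 and 0.08 as TPM. Endothelial markers, listed because endothelial cells are known to express Smad6, summed to 73.3 to 141 FPKM under the KO label and 81.8 to 111 under the WT label, with 6 of the 7 genes above 0 in log2 fold change, none called, and KO replicates 2 and 4 highest. Their part in the Smad6 values was not tested. Smad7, which blocks the type I receptors of TGF-beta and activin, averaged 5.47 ± 1.89 FPKM under the KO label and 5.13 ± 1.09 FPKM under the WT label.

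**Figure D3:**
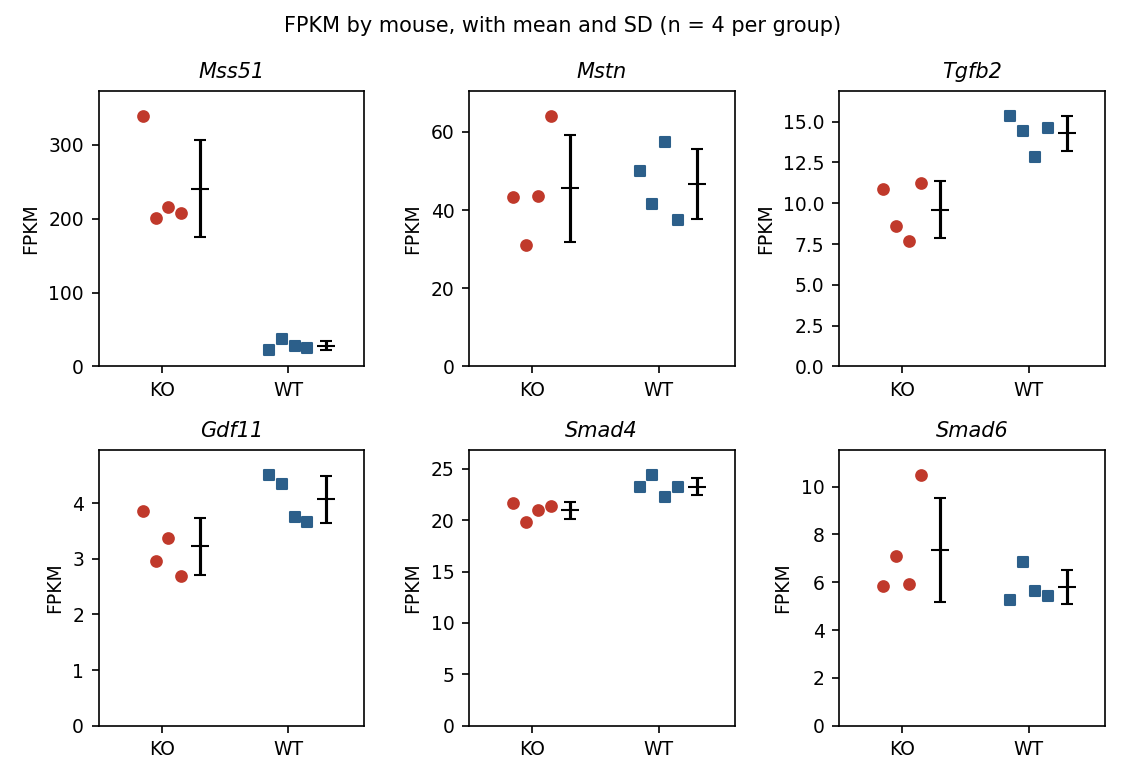
FPKM per mouse (vertical axis from 0) of Mss51 and 5 members, with the mean and SD of each group of 4 beside the points. Libraries labelled KO and WT are separate for Mss51, Tgfb2 and Smad4 and overlap for Mstn, Gdf11 and Smad6.

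None of the receptors passed the test. Acvr1b, a type I receptor for activins and myostatin, stood at 27.05, 16.99, 21.29 and 26.58 FPKM in the libraries labelled KO, against 23.74, 26.99, 26.97 and 22.26 FPKM in those labelled WT. The groups overlapped, with a log2 fold change of -0.14 (limma adjusted p = 0.795). Tgfbr1, the type I receptor for TGF-beta, stood at 12.77, 10.96, 10.05 and 12.82 FPKM in the libraries labelled KO, against 14.86, 11.80, 15.09 and 12.11 FPKM in those labelled WT. Its groups overlapped too, and the log2 fold change was -0.20 (95% interval -0.46 to 0.06, limma adjusted p = 0.598).

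Of the type II receptors for activins and myostatin, Acvr2a was above Acvr2b in 8 of 8 libraries, 2.45 ± 0.176 times under the KO label and 2.73 ± 0.714 times under the WT label (SD, n = 4 each). Acvr2a averaged 11.6 ± 1.63 FPKM under the KO label and 13.5 ± 2.52 FPKM under the WT label, and Acvr2b averaged 4.74 ± 0.584 and 5.06 ± 1.01 FPKM. Part of the Acvr2a signal is uncertain, since 7.84% of its exonic bases are also those of Orc4 on the opposite strand and no strand setting is given. The locus of its deposited value also runs to 49325405 on chromosome 2, past the annotated end of Acvr2a at 48903269. Tgfbr2, the type II receptor for TGF-beta, averaged 19.3 ± 2.87 FPKM under the KO label and 20.7 ± 1.05 FPKM under the WT label. The coreceptor betaglycan, Tgfbr3, averaged 10.1 ± 1.44 and 9.82 ± 0.907 FPKM under the same labels. Bambi, a receptor-like protein without a kinase that blocks signalling, stayed at 0.507 FPKM or less in all 8 libraries.

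Among the extracellular binders, decorin (Dcn), a matrix proteoglycan that binds TGF-beta and myostatin, was the most abundant member of all. It stood at 472, 458, 419 and 550 FPKM in the libraries labelled KO, against 504, 513, 520 and 583 FPKM in those labelled WT. KO replicate 4 lay within the WT values and the other 3 lay below them. The log2 fold change was -0.16 (95% interval -0.38 to 0.06, limma adjusted p = 0.604). Markers of fibroblasts, cells known to make decorin, summed to 418 to 734 FPKM under the KO label and 539 to 676 FPKM under the WT label, with 0 of 9 called, and 7 of the 9 were below 0. KO replicate 3 was lowest for Dcn and for this sum, but their highest libraries differed. The sum was highest in KO replicate 2 (734 FPKM, with Dcn at 458 FPKM). Dcn was highest in WT replicate 4 (583 FPKM, with the sum at 586 FPKM). The part of fibroblasts in the Dcn values was not tested. In such bulk tissue, fewer cells of a type and less RNA per cell cannot be told apart.

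Follistatin was present at a low level. Fst averaged 4.94 ± 0.947 FPKM under the KO label and 5.62 ± 1.11 FPKM under the WT label, and Fstl3, a related blocker of activins and myostatin, stayed under 1 FPKM in every library. For Fstl3, 47.3% of the exonic bases are also those of Prss57 on the opposite strand, so its low values cannot be assigned. Fstl1, a secreted glycoprotein of the follistatin-like family, averaged 69.3 ± 16.4 and 63.9 ± 5.35 FPKM under the KO and WT labels, and the ratio of Fstl1 to Fst averaged 14.1 ± 2.49 and 11.8 ± 2.84. Ltbp1, which holds latent TGF-beta in the matrix, averaged 5.71 ± 1.68 and 4.82 ± 0.215 FPKM under these labels, with KO replicates 2 and 4 above all of the WT libraries and KO replicate 3 below them.

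The intracellular regulators overlapped between the labels. Ski, a corepressor of Smad complexes, stood at 16.9, 19.5, 18.5 and 24.0 FPKM in the libraries labelled KO, against 21.2, 18.4, 23.1 and 20.1 FPKM in those labelled WT (log2 fold change -0.07, limma adjusted p = 0.861). Its relative Skil, itself a known target of the pathway, averaged 4.36 ± 0.860 and 4.88 ± 1.504 FPKM under the KO and WT labels. The ubiquitin ligases Smurf1 (5.32 ± 0.720 and 5.63 ± 0.492 FPKM) and Smurf2 (10.9 ± 1.28 and 12.0 ± 1.13 FPKM) and the Smad inhibitor Pmepa1 (8.72 ± 1.21 and 7.96 ± 0.927 FPKM) are given in the same order of labels.

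The target gene Ctgf (now Ccn2), which encodes a matricellular protein induced by TGF-beta, varied most of the tested members. It stood at 16.9, 25.1, 28.8 and 33.1 FPKM in the libraries labelled KO, against 31.7, 16.1, 38.6 and 32.7 FPKM in those labelled WT. A low library occurred under each label, KO replicate 1 and WT replicate 2, and the groups overlapped. The log2 fold change was -0.17 with a 95% interval of -0.82 to 0.48 (limma adjusted p = 0.877), and 0.02 without KO replicate 1. Of its exonic bases 23.2% also belong to an RNA on the opposite strand. The locus of its deposited value begins at 24549441 on chromosome 10, upstream of the annotated start of Ctgf at 24595442.

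Other genes of the pathway gave no call either. Of 46 further regulators, 37 were tested, 0 were called, 27 were below 0 and the median log2 fold change was -0.07. The regulators with the smallest p were lower under the KO label: the acetyltransferase Ep300 (7.01 ± 0.551 against 8.49 ± 0.369 FPKM, -0.26), the deubiquitinase Usp9x (20.9 ± 0.719 against 23.1 ± 1.19 FPKM, -0.14) and fibromodulin, Fmod (35.6 ± 19.4 against 56.5 ± 19.1 FPKM, -0.72). Those next in order with positive values were the kinase adaptor Tab1 (0.12, and -0.07 as TPM), the inhibin subunit Inha (0.20) and the endothelial coreceptor endoglin, Eng (0.23). The adjusted p of these 6 in limma was 0.353 or more.

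Of 26 further targets, 25 were tested, 0 were called, 16 were below 0 and the median was -0.13. Periostin, Postn, a matrix protein, averaged 7.41 ± 2.19 FPKM under the KO label and 5.03 ± 0.670 FPKM under the WT label (0.49). Smooth muscle actin, Acta2 (23.4 ± 2.40 against 30.4 ± 5.57 FPKM, -0.35), the matricellular gene Cyr61 (19.2 ± 4.37 against 26.5 ± 5.01 FPKM, -0.47) and the muscle ubiquitin ligase Trim63 (120 ± 12.4 against 144 ± 18.7 FPKM, -0.25) had negative values. Tsc22d1 (0.21) and Timp1 (0.31) had positive values, that of Tsc22d1 being -0.00035 as TPM. The smallest adjusted p in limma among these targets was 0.412.

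Several members varied together from mouse to mouse, across the labels rather than between them. For 9 of the 27 tested members (33.3%), namely Mstn, Tgfb3, Acvr2a, Tgfbr1, Smad3, Smad7, Ski, Skil and Smurf2, the 3 highest libraries were KO replicate 4 and WT replicates 1 and 3. The same 3 libraries were highest for 8% of all genes tested. This count was made after the values were seen and has no test. KO replicate 4 and WT replicate 3 are also the libraries whose named FPKM sums stood apart, and as TPM these 3 libraries were highest for 0 members. The part of that scaling in the shared variation was not tested.

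Mstn was set against each of the 26 other tested members over the 8 libraries on the log2(FPKM + 0.5) scale. Pearson's r was 0.6 or more for 10 of them (38.5%), against 9.86% of all genes tested, and the median r was 0.325 for the members and 0.054 for all genes. The count was 8 of 26 (30.8%, against 16.3% of all genes) without KO replicates 4 and 2, the libraries farthest from the median of Mstn, and 8 of 26 (30.8%, against 7.63%) with median-ratio scaling. As TPM it was 19 of 26 (73.1%, against 64.4%), a scaling that moves all genes of a library together. The 10 members as deposited include every other member named above for sharing its highest libraries with Mstn. These relations therefore describe largely the same values again, and their p-values are descriptive. The member closest to Mstn was Tgfb3, with r = 0.919 (exact permutation p = 0.00191, adjusted over the 26 relations 0.0497) and Spearman's rho = 0.976 (exact permutation p = 0.000397, adjusted 0.0103). Without KO replicates 4 and 2, r was 0.956 over 6 libraries, and it was 0.886 with median-ratio scaling and 0.908 as TPM with all 8. For Tgfb3, 12.4% of the exonic bases also belong to RNAs on the opposite strand. The locus of its deposited value runs from 85824568 to 86079041 on chromosome 12, while the annotated gene begins at 86056745. Which part of that locus the reads came from cannot be seen. The adjustment covers the members only, and the share of all genes with r as high as that of Tgfb3 was not computed.

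The next members in this order were Skil, Acvr2a and Smad7, and none passed the adjustment. Skil had r = 0.769 and rho = 0.762 (exact permutation p = 0.0270 and 0.0368, adjusted 0.176 and 0.239), and r was 0.900 without the same 2 libraries. Acvr2a had r = 0.755 and rho = 0.762 (exact permutation p = 0.0322 and 0.0368, adjusted 0.176 and 0.239), and r was 0.856 without them. Smad7 had r = 0.754 and rho = 0.833 (exact permutation p = 0.0298 and 0.0154, adjusted 0.1763 and 0.1999), and r was 0.790 without them. Smad2 (r = 0.742) and Acvr1b (r = 0.728) came next and rested on those 2 libraries, since r was 0.388 for Smad2 and 0.377 for Acvr1b without them. Ski, Smad3, Smurf2 and Tgfbr1 had r of 0.613 to 0.674, and 0.639 to 0.857 without them, but Smurf2 and Tgfbr1 dropped to 0.593 and 0.581 with median-ratio scaling. For Tgfb2 against Mstn r was 0.259 and rho 0.0952 (exact permutation p = 0.532 and 0.840, adjusted 0.769 and 0.950), with r = 0.0441 without them. For Gdf11 r was -0.054 and rho -0.0238 (exact permutation p = 0.897 and 0.977, adjusted 0.932 and 0.977), with r = 0.161 without them. As TPM, where 64.4% of all genes had r of 0.6 or more, r was 0.797 for Tgfb2 and 0.880 for Gdf11.

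Of the marker lists examined, only those of tendon cells and of pericytes and smooth muscle had sums highest in the same 3 libraries. By single gene, Fmod, Rgs5 and Abcc9 had these libraries highest, and the other markers of both lists did not. Fmod is also among the further regulators above. The sum of the tendon markers was 43.5, 66.4, 55.8 and 120 FPKM in the libraries labelled KO, against 106, 64.5, 131 and 93.2 FPKM in those labelled WT, and all 4 of the tested tendon markers were below 0 with none called. The pericyte and smooth muscle markers summed to 158, 176.5, 151 and 209 FPKM in the libraries labelled KO, against 198, 190, 216 and 175 FPKM in those labelled WT, with 5 of 6 below 0 and none called. The part of these tissues in the shared variation of Mstn and the other members was not tested.

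**Figure D4:**
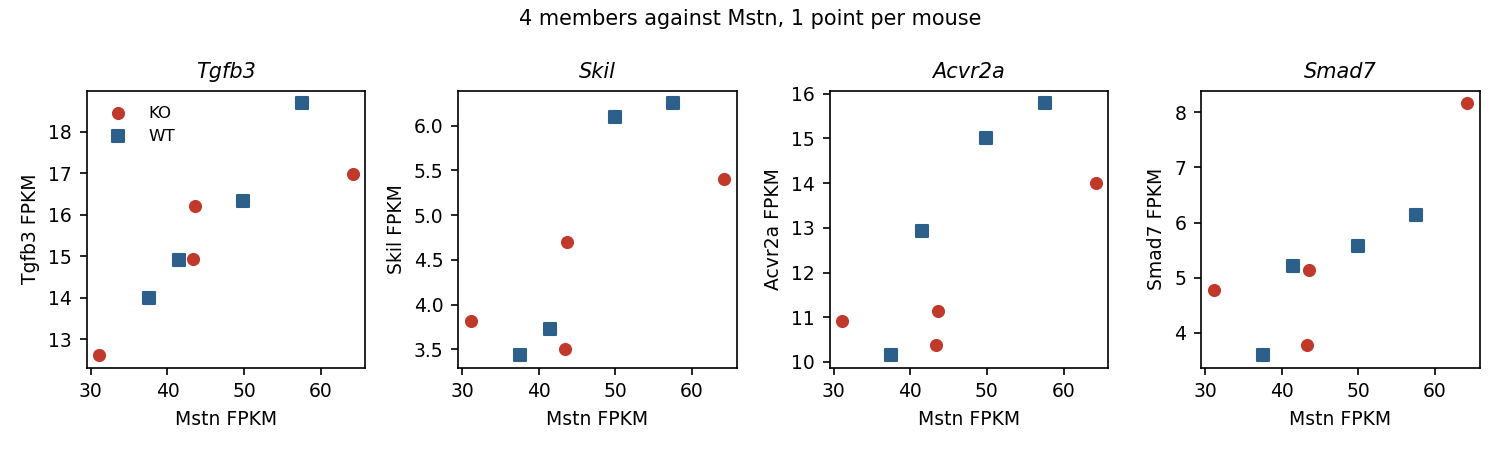
FPKM of Tgfb3, Skil, Acvr2a and Smad7 (vertical axes) against FPKM of Mstn (horizontal axes), with 1 point per mouse, libraries labelled KO as circles and those labelled WT as squares. Tgfb3 follows Mstn most closely (r = 0.919 on the log2 scale), with points of both labels along the same course.

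Annotation placed the 30 members on 15 chromosomes in mm10, with none on chromosome 14, which holds Mss51. The muscle label held for the markers that were measured, since Ckm, Mylpf and Pvalb were at 7537 FPKM or more in every library. Myoglobin, Mb, stood at 1838 to 4704 FPKM under the KO label and 1624 to 1937 FPKM under the WT label. Its log2 fold change was 0.95 (unadjusted p = 0.00538 and adjusted p = 0.347 in limma). Ckm, Mylpf, Pvalb and Actn3 were below 0, each with an unadjusted p above 0.05 in limma. Acta1 was not found among the gene names. Myh4 was listed at 0 in all libraries and Tnnt3 was listed at 0 in 4, so an exact 0 in these files can be a failed estimate. No member was listed at 0. Of the marker lists examined, none had a called gene. Haemoglobin and erythroid genes summed to 652 to 3171 FPKM under the KO label and 508 to 1334 FPKM under the WT label, and adipocyte markers to 431 to 659 FPKM under the KO label and 381 to 597 FPKM under the WT label. Fabp4 made up most of the adipocyte sum (444 ± 104 and 411 ± 87.5 FPKM under the KO and WT labels), while the other 4 of the 5 markers were below 0. Of these, Lep (1.01 ± 1.19 and 3.36 ± 0.955 FPKM), Plin1 (9.30 ± 4.46 and 14.8 ± 3.17 FPKM) and Adipoq (26.6 ± 6.00 and 38.5 ± 10.5 FPKM) had an unadjusted p under 0.05 in limma. The part of these cells in the values of the members was not tested.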

How the data were processed

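RNA of quadriceps muscle was sequenced in 8 libraries, 1 per mouse, 4 labelled KO and 4 labelled WT, grouped by the genotype label. The authors deposited FPKM per gene and library, per the file headers. The submitters' processing notes list Cufflinks 2.2.1, TopHat2 2.1.1, Bowtie2 2.2.6 and FastQC with the mm10 build, without their roles. Which annotation, filters and strand setting were used is not given in the sources used here, which leaves genes with exons on both strands uncertain. Unnamed entries (2379 of 46036) were left out. They held 65.8% to 93.2% of a library's summed FPKM. For repeated names the row with the highest mean was used. The low FPKM values did not give whole reads, so no count test, counting interval or limit for 0 is given.

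Genes averaging 1 FPKM or more were compared with limma 3.58.1 in R 4.3.3 (log2(FPKM + 0.5), genotype alone, variance trend with mean, two-sided, Benjamini-Hochberg over all genes tested, threshold 0.05). FPKM were not rescaled. The pipeline was tested on simulated data. The share of changed genes it called there is not given here, so that test does not show how small a difference would be called. Mss51 was also compared between the labels by exact permutation over 70 assignments. Relations to Mstn were tested by exact permutation of all pairings of the libraries, two-sided, with Benjamini-Hochberg adjustment over the 26 relations. P-values in limma weigh a group difference against the spread between these libraries, with information on variance shared across genes. Permutation p-values give the share of rearrangements at least as extreme. No 2 libraries were copies, since at most 0.00842% of genes had equal FPKM in any of 28 pairs.

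Alternatives were pseudocounts of 0.1 and 1, no filter, a mean of at least 5 FPKM, TPM, median-ratio scaling, summed repeated names, other variance models, a replicate block and each library left out. Members and lists were chosen with earlier results of these data known. Values per library are given by a rule: Mstn, the most abundant member of each role, the 6 members with the smallest p and members without overlap. Of other pathway genes, up to 3 per direction and list with the smallest p are named. Genes were placed with GENCODE M21, and promoters are from RefSeq (GRCm38.p6).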

Additional observations from a re-analysis of the deposited data

Results flagged for a closer look

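Among 62 groups of 4 libraries examined, 30 members and Mss51 under 2 labels, 2 held a library far from the other 3, and chance gives about 1 in 20. Mss51 stood at 339.6 FPKM in KO replicate 1, while the other 3 libraries labelled KO lay between 200.9 and 215.7 FPKM. Smurf2, a ubiquitin ligase of the pathway, stood at 13.66 FPKM in WT replicate 3, while the other 3 libraries labelled WT lay between 11.27 and 11.53 FPKM. The cause of neither was tested.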

How the results depend on the processing

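The count of members past the threshold was 0 under all 18 alternatives. At an unadjusted p under 0.05 limma gave 1 to 3 members, against 3 with the settings of the report. The median of the members ran from -0.1706 to -0.0219 with 1 library left out, and was -0.2833 rescaled to TPM, where all genes had -0.1761. The count of members without overlap was 2 to 4 with 1 library left out. It was 4 without KO replicate 4, which added Dcn and Smurf2, 0 rescaled to TPM and 2 with median-ratio scaling. Groups with fewer libraries stay apart more readily. The share of all genes without overlap is not given for these alternatives, so these counts have no background. Of all genes, 6 passed with the settings of the report, 4 to 125 with 1 library left out (125 without KO replicate 1), 123 rescaled to TPM and 0 with the replicate block. With that block 2 members had an unadjusted p under 0.05. With it the log2 fold change of Mss51 was 3.069 with a limma adjusted p of 0.0530, while without 1 library it ran from 2.892 to 3.208. The replicate numbers name different mice, and same-numbered libraries did not deviate together (correlations -0.0809 to 0.00933), so they do not pair the samples. Rescaled to TPM, signs turned for Tab1 (-0.0736), Tsc22d1 (-0.0003506) and 6 of the 7 members above 0 (Inhba, Fstl1, Ltbp1, Tgfbr3, Smad7 and Pmepa1). With 1 library left out, Mstn ran from -0.2388 to 0.1056, Ctgf from -0.4333 to 0.0213 and Timp1 from -0.0230 to 0.5644. The other 9 members given by library and the other 9 pathway genes named with a log2 fold change kept their direction under these alternatives, and none passed the threshold in any. The members given only as means were not followed through every alternative. The causes were not tested. With 4 libraries per label and no counts, small differences in genes near 1 FPKM, such as Inhba, could not be resolved.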
